A study of Mus musculus with 12 samples.

Results

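In AML12 cells, a line of immortalized mouse hepatocytes, 303 genes had an FPKM of 0 in each of the 3 untreated libraries and of 0.2 or more in each of the 3 libraries treated with copper and elesclomol. FPKM scales the fragments of a gene by its length and by the total of its library, so levels of different genes can be set side by side. These 303 genes are 5.03% of the 6029 genes listed at 0 in all untreated libraries and 1.22% of the 24824 genes of the table. The genes were selected on the measured FPKM of these 2 groups, so both are given here as a description without a test. All 12 libraries came from the same line, with a genotype labelled as wild type, harvested after 24 h. Group A was grown in standard medium, and group B received 300 μM CuCl2 with 40 nM elesclomol (Cu/ES). Taurocholic acid (TCA) was added at 1000 μM to the same Cu/ES in group C, and was given at 1000 μM without Cu/ES in group D. Each group held 3 libraries of polyadenylated RNA. Where nothing says that they came from separate cultures, p-values measure only the spread between these libraries.

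Elesclomol is an ionophore that carries copper into cells, and TCA is a conjugated bile acid. Excess copper damages proteins, and cells answer such damage with heat shock proteins, which refold other proteins, and with metallothioneins, which bind metal ions. Many other genes of a differentiated cell are kept silent because they belong to another tissue, and long noncoding RNA (lncRNA) genes are often expressed at low levels and in few tissues. AML12 cells derive from hepatocytes of a mouse carrying a human growth factor transgene and differ from hepatocytes in the liver. Of 23 hepatocyte genes in the table, 11 were themselves at 0 in each group A library, among them *Alb*, *Apob*, *Hnf4a* and *Cyp7a1*. The keratins *Krt8* and *Krt18* were at 344 ± 37.7 and 285 ± 22.7 FPKM in group A (mean ± SD, n = 3). None of the 11 silent hepatocyte genes was among the 303, a count that at this size is near the share of 5.03%. Liver genes did not all stay off, since 2 of the list passed the same rule with group D in place of A and C in place of B. Of 18 hepatocyte genes tested for group C against group D, 6 were called up and 4 down. With median-ratio scaling of the libraries these counts were 8 and 1.

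The libraries of group A, where the genes were at 0, were deeper than those of groups B and C. Read numbers, worked out from the step between FPKM values, summed to between 38298857 and 39108519 per library in group A, against 30773752 to 32002324 in group B, 29115011 to 34912748 in group C and 39444420 to 39782142 in group D. A count of 0 allows an expected number of up to 3 reads in a library. For the 303 genes this limit corresponded to a median of 0.0618 FPKM in group A (range 0.0055 to 1.02). Set against that limit, the group B mean was at least 13.1-fold higher in the median gene. This limit and the intervals below cover counting error only. Fewer cells that express a gene and less RNA per cell cannot be told apart in these bulk libraries.

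Most of the 303 genes were at a low level in group B. Their mean FPKM in group B had a median of 0.727 (range 0.235 to 443), 116 genes were at 1 or more and 9 were at 10 or more. The median gene had 32 reads per group B library. Together the genes summed to 884, 1480 and 867 FPKM in B1, B2 and B3, and to 683, 992 and 762 FPKM in C1, C2 and C3. The sums in D1, D2 and D3 were 2.36, 2.5 and 2.3 FPKM. Library 2 stood highest in both Cu/ES groups: 181 of the 303 genes had their highest group B value in B2, and 173 had their highest group C value in C2. Every library of group C was above every library of group D in this sum, as was every library of group B, whose values chose the genes. Leaving out *Hspa1a*, the most abundant of the genes, the sums were 546, 796 and 559 FPKM in group B and 576, 807 and 624 FPKM in group C.

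**Figure D1:**
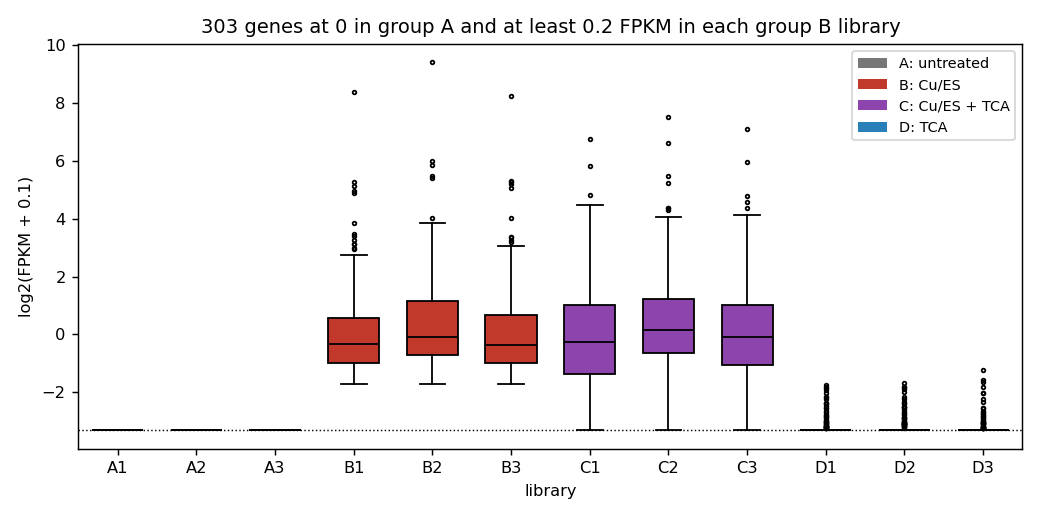
Box plots of log2(FPKM + 0.1) of the 303 genes in each of the 12 libraries, with the median, the quartiles, whiskers to 1.5 times the interquartile range and points beyond. The dotted line marks 0 FPKM, where all genes lie in group A by choice and where 215 lie in all 3 group D libraries at once, while the boxes of groups B and C cover the same range. In D1, D2 and D3 taken singly, 43, 45 and 40 genes lie above it.

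Values of a group are given in the order of its libraries 1, 2 and 3. The stress gene with the highest level was *Hspa1a*, which encodes the inducible heat shock protein of the Hsp70 family. Its FPKM was 338, 682 and 308 in B1, B2 and B3, was 108, 185 and 138 in C1, C2 and C3, and was 0.00898 in D1, 0 in D2 and 0 in D3. The single read in D1 stood against 8772 to 18118 reads per group C library, a ratio of reads scaled to depth of 48500 (95% interval 8710 to 1920000). *Hspa1a* rose in group C against group D by 10.41 on the log2(FPKM + 0.1) scale (standard error [SE] 0.27, Benjamini-Hochberg adjusted p = 3.36e-11 by limma). The error in this and the later single-gene tests was estimated over all 12 libraries, including groups A and B, which chose the genes. The near-identical copy *Hspa1b* was at 7330, 8950 and 7250 FPKM in group B and at 0.492, 1.21 and 0.746 FPKM in group A. It had 53 to 132 reads in group A and 111 to 149 in group D. How reads shared by both copies were counted is not given in the sources used here, so the level of *Hspa1a*, including its 0 in group A, is uncertain.

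*Hspa1l*, a member of the Hsp70 family that is abundant in testis, lies beside *Hspa1a* on the opposite strand. Its FPKM was 2.42, 2.76 and 2.38 in group B, 1.48, 1.91 and 0.936 in group C, and 0.0208, 0 and 0 in group D. All group C values were above all group D values, a log2 fold change of 3.8 (SE 0.24, Benjamini-Hochberg adjusted p = 3.53e-08 by limma). *Mt3*, a metallothionein known from brain, was the gene of the metal handling list among the 303. Its FPKM was 2.23, 2.21 and 2.05 in group B, 1.72, 3.89 and 2.42 in group C, and 0.0934, 0 and 0 in group D. The groups C and D did not overlap, and the log2 fold change was 4.4 (SE 0.32, Benjamini-Hochberg adjusted p = 1.11e-07 by limma). For the neighbouring metallothioneins *Mt4* and *Mt2* the log2 fold change of group C against group D was negative (-2.51 and -1.97). *Mt4* was itself at a low level, with means of 0.522 FPKM in group C and 3.23 FPKM in group D. Values of these genes under another scaling of the libraries are not given here. The whole metal handling list summed to 2010 to 2310 FPKM per group C library, against 1100 to 1280 FPKM in group D. The bases before the RefSeq transcription starts of *Hspa1a*, *Hspa1l* and *Mt3* in GRCm38.p6 are shown. They are the regions in which elements of the heat shock and metal responses were searched. Capitals mark a heat shock element of 2 units (GAANNTTC or TTCNNGAA, where N is any base), which was present before *Hspa1a* and had no match before the others. Only exact matches are marked, so units with a changed base beside them are not shown.

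Hspa1a (chr17:34972157-34972406, minus strand): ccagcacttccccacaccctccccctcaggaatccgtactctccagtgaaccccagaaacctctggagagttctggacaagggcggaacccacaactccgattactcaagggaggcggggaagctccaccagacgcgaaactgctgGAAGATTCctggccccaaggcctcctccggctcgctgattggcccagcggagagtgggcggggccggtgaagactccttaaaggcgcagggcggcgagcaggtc
Hspa1l (chr17:34972453-34972702, plus strand): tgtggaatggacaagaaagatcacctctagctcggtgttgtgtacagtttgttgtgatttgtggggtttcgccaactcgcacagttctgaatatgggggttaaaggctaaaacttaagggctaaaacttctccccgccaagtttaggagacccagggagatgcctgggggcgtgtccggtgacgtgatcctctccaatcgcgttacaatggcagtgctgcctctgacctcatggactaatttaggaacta
Mt3 (chr8:94152357-94152606, plus strand): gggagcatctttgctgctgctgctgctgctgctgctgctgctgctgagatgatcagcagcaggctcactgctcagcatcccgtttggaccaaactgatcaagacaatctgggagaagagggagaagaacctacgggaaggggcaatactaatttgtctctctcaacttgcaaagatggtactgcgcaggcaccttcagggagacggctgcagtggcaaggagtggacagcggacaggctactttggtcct

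Few of the 303 genes were on the stress gene lists, because few genes of those lists were silent in group A. Of 59 heat shock and co-chaperone genes in the table, 3 were at 0 in group A, and *Hspa1a* and *Hspa1l* were chosen while *Hspb9* was not. Of 32 metal handling genes, 4 were at 0 in group A and 1 was chosen. The immediate early, integrated stress response and p53 target lists had 2, 1 and 1 silent genes, none of which was chosen. Over all tested genes of these lists, group C was higher than group D for 22 and lower for 15 of 58 heat shock genes, for 5 and 12 of 27 metal handling genes, for 20 and 4 of 34 immediate early genes, for 3 and 5 of 20 integrated stress response genes and for 3 and 10 of 21 p53 targets. With median-ratio scaling these counts were 32 and 8, 8 and 10, 26 and 2, 10 and 4, and 7 and 5, so the balance turned for the integrated stress response and p53 lists. Most genes of these lists were expressed in group A.

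Of 52 cytokine genes in the table, 10 were at 0 in group A and 2 of these were chosen. *Il9*, a cytokine of T helper and mast cells, was at 4.5, 6.46 and 5.52 FPKM in group B, at 4.33, 7.12 and 5.26 FPKM in group C, and at 0 in each group D library. Its mean in group C was at least 40.2-fold higher than the 3-read limit in group D. *Il22*, a cytokine that acts on epithelia, was at 1.04, 0.535 and 0.417 FPKM in group B, at 0.515, 0.552 and 0.641 FPKM in group C, and at 0 in group D. Both rose in group C against group D, with log2 fold changes of 5.8 and 2.74 (Benjamini-Hochberg adjusted p = 3.76e-10 and 1.13e-06 by limma). With a pseudocount of 1 the log2 fold change of *Il22* was 0.65, under the fold threshold. Over 45 tested cytokine genes, 11 were higher and 16 lower in group C than in group D, and 16 and 12 with median-ratio scaling.

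Of the 15 genes with the highest mean in group C, 9 are lncRNA genes and 6 are annotated as protein coding. *Gm41326* was at 31.1, 58 and 36.8 FPKM in group B, at 56.8, 98.1 and 61.8 FPKM in group C and at 0 in group D, which made group C at least 770-fold higher than the limit in group D. *1700121C08Rik* was at 38.3, 63.9 and 39.7 FPKM in group B and at 28, 44.7 and 27.3 FPKM in group C, and *Gm34211* was at 35.2, 44.5 and 38.8 FPKM in group B and at 22.4, 38.1 and 24 FPKM in group C. Both were at 0 in each group D library. The protein-coding genes were *Hspa1a*, *A530064D06Rik*, *Jph2*, which ties the cell membrane to the sarcoplasmic reticulum in heart muscle, *C1qtnf2*, a secreted protein with a C1q domain, *Lce1f*, a protein of the cornified envelope of skin, and *Spz1*, a transcription factor of spermatogenesis.

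*Jph2* was at 7.67, 10.8 and 7.67 FPKM in group B, at 18.3, 20.9 and 20.7 FPKM in group C, and at 0, 0 and 0.00531 FPKM in group D. Every group C library was above every group B library. The log2 fold change of group C against group D was 7.62 (SE 0.17, Benjamini-Hochberg adjusted p = 1.52e-11 by limma). *C1qtnf2* was at 6.57, 14.5 and 7.4 FPKM in group B, at 12.4, 19.9 and 13.6 FPKM in group C and at 0 in group D, with libraries of groups B and C overlapping. *Spz1* was at 7.78, 13.5 and 10.2 FPKM in group B and at 4.95, 15.9 and 8.97 FPKM in group C, again with overlap and with no read in group D.

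**Figure D2:**
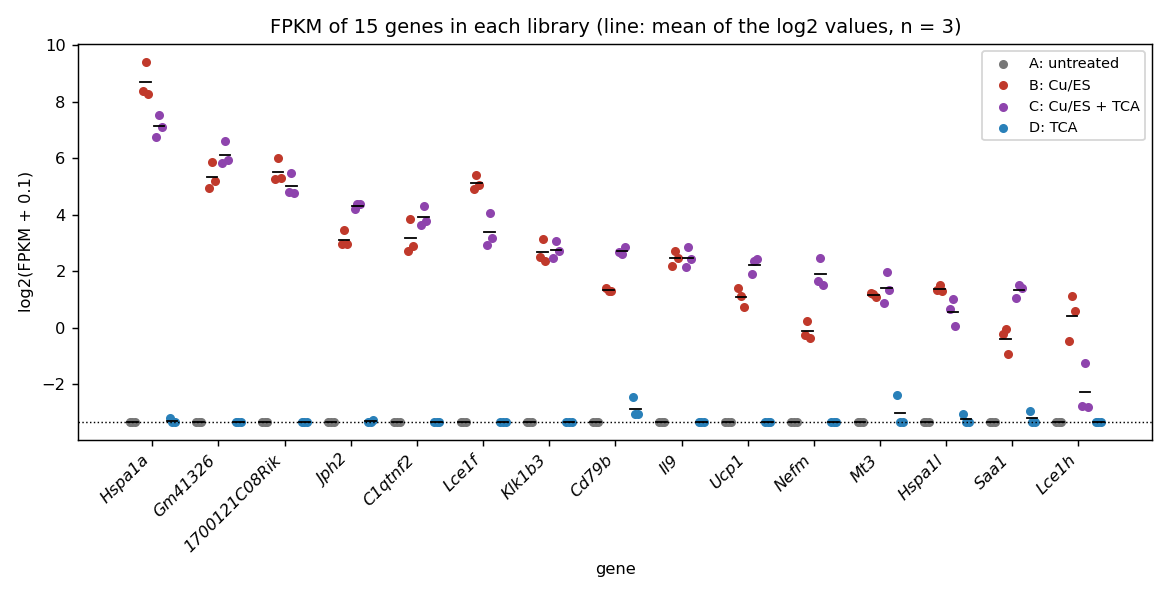
Log2(FPKM + 0.1) of 15 of the genes in each library, coloured by group, with a line at the mean of each group (n = 3). The dotted line marks 0 FPKM, where group A lies for every gene, group D lies at or just over it, and *Lce1f* and *Lce1h* are lower while *Jph2* and *Nefm* are higher in group C than in group B.

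Groups C and D were not used to choose the genes, and their comparison sets Cu/ES with TCA against TCA alone. The fit estimated the error over all 12 libraries, including group A, where the rule set the genes to 0, and group B, so the p-values of single genes draw in part on values that the rule used. By limma with Benjamini-Hochberg adjustment over 20801 genes, 290 of the 303 genes (95.7%) were higher in group C than in group D past an adjusted p of 0.05 and a log2 fold change of 1, and none was lower by limma or by limma-voom on recovered reads, since every log2 fold change was above 0 (lowest 0.37). For the 215 genes at 0 in each group D library, group C could not be lower, so the direction of their change was fixed in advance. The call of a higher level was made for 15.6% of all genes tested, for 30.2% of the 2711 tested genes at 0 in group A and for 22.0% of those that were not among the 303. All 303 entered the test, since the filter asked for values above 0 in 3 libraries and group B provided them. Of all genes tested 36.2% were lower in group C. The median log2 fold change was -0.27 over all genes tested and 3.08 over the 303 genes. With median-ratio scaling the median of all genes moved to 0.19, and 5706 genes were higher and 4343 lower in place of 3250 and 7521, while 296 of the 303 were higher. In a fit of groups C and D alone, 277 of the 303 were higher, against 15.2% of all genes tested. The adjusted p by limma with Benjamini-Hochberg was then 9.2e-07 for *Hspa1a*, 4.53e-05 for *Hspa1l*, 0.000111 for *Mt3*, 3.29e-06 for *Il9* and 1.19e-05 for *Il22*. Of the 40 genes named by rule, *Gm40492*, *Defb15*, *Lce1h* and *Gm36474* no longer passed in that fit. With a pseudocount of 1 in place of 0.1, 131 of the 303 passed and their median log2 fold change was 0.89, while a pseudocount of 0.01 made the median 5.94. The size of the fold changes of these low genes was thus set largely by the pseudocount.

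**Figure D3:**
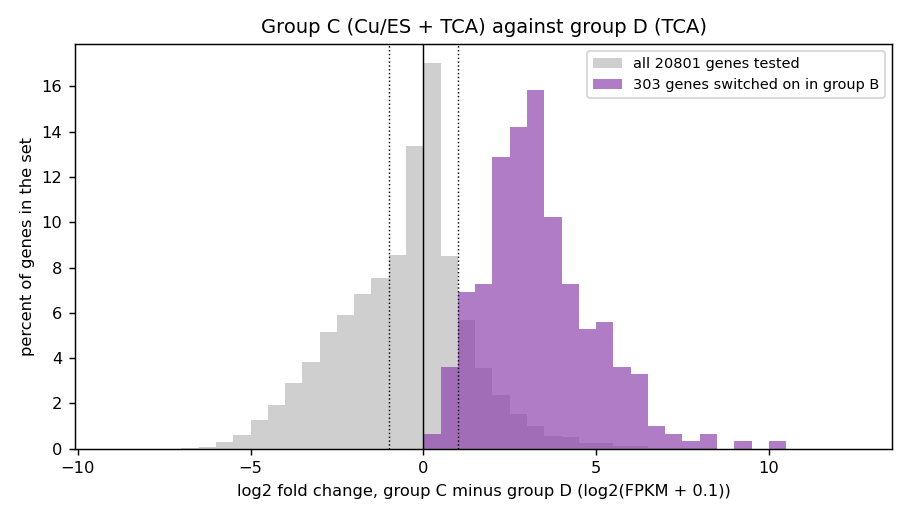
Distribution of the log2 fold change of group C against group D for all 20801 genes tested (grey) and for the 303 genes (purple), in percent of each set and in steps of 0.5, with dotted lines at the fold threshold. All values of the 303 genes are above 0, with a median of 3.08, while the median of all genes is -0.27. For the 215 genes at 0 in each group D library a value under 0 was not possible.

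By ranks alone, all group C libraries were above all group D libraries for 286 of the 303 genes, against 25.4% of all genes tested. At the level of the original rule, 232 of the 303 (76.6%) were at 0.2 FPKM or more in each group C library, as were 143 (2.5%) of the other 5726 genes at 0 in group A. Each of the 303 was above 0 in at least 1 group C library and 288 were above 0 in every one. The other 15 were low in group B too, with means of 0.25 to 1.12 FPKM. The 13 genes that did not pass the test had group B means of 0.25 to 0.62 FPKM and log2 fold changes of 0.37 to 0.98 between groups C and D. Among them, chosen after their values were seen, were the carboxylesterase *Ces1h*, the odorant receptor *Or6c66b* and the zinc finger gene *Zfp660*. *Zfp660* was at 0.354, 0.837 and 0.371 FPKM in group B, at 0.0297, 0.178 and 0.0589 FPKM in group C and at 0 in group D (log2 fold change 0.84, Benjamini-Hochberg adjusted p = 0.0297 by limma).

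TCA alone left the genes at or near 0. In group D, 215 of the 303 (71.0%) were at 0 in each library, compared with 77.4% of all 6029 genes at 0 in group A. Another 33 had 1 read over the 3 group D libraries, 16 had 2 or 3 reads and 39 had more than 3, up to 13. No gene of the 303, and no other gene at 0 in group A, reached 0.2 FPKM in every group D library. The 5 with the highest group D means were *Gm38969*, *Lce3f*, *Gm40923*, *Gm29791* and *Gm40233*. *Lce3f*, a cornified envelope gene, was at 0.122, 0 and 0.326 FPKM in group D, at 1.78, 2.12 and 1.31 FPKM in group B and at 3.55, 4.34 and 2.1 FPKM in group C. *Gm38969* was at 0.0922, 0.186 and 0.232 FPKM in group D and at 2.27, 2.58 and 1.25 FPKM in group C, without overlap. *Gm40923* was at 0.111, 0.112 and 0.223 FPKM in group D and at 0.151, 0.568 and 0.477 FPKM in group C, where the groups overlapped. Its ratio of reads scaled to depth was 2.77 (95% interval 1.15 to 7.37), with 8 reads in group D, and it was one of the 13 genes that did not pass. For the 49 genes with 1 to 3 reads in group D the median ratio of reads scaled to depth between groups C and D was 126, and for the 39 with more reads it was 37.

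The same rule with group D in place of A and group C in place of B chose 335 genes. Of these 156 were among the 303, which is 51.5% of the 303 and 46.6% of the 335. Of the 147 genes that the second rule did not choose, 88 had a read in group D, and the other 59 were at 0 in group D and under 0.2 FPKM in at least 1 group C library.

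With TCA added to Cu/ES, some of the genes were higher and others lower than with Cu/ES alone. Because group B chose the genes, these values are a description. All group C libraries were above all group B libraries for 58 of the 303 genes (19.1%; 17.9% of all genes tested) and under them for 45 (14.9%; 16.3% of all genes tested), so both shares were near those of all genes. The groups overlapped for 200 genes, and the median log2 ratio of group C to group B was -0.0359. Among genes with a group B mean of at least 0.5 FPKM, the largest ratios were those of *Nefm*, *Hsh2d*, *Hrh4*, *Saa1* and *Srd5a2*. *Nefm*, a neurofilament subunit, was at 0.742, 1.07 and 0.684 FPKM in group B and at 3.09, 5.49 and 2.79 FPKM in group C. *Hsh2d*, an adaptor of blood cells, was at 0.67, 0.714 and 0.796 FPKM in group B and at 2.8, 2.67 and 3.21 FPKM in group C. *Saa1*, an acute phase protein that hepatocytes secrete, was at 0.762, 0.868 and 0.432 FPKM in group B and at 1.99, 2.77 and 2.58 FPKM in group C. The receptor *Hrh4*, which binds histamine, went from a mean of 0.508 ± 0.116 to 2.01 ± 0.587 FPKM, and *Srd5a2*, which reduces testosterone, from 0.639 ± 0.144 to 2.22 ± 0.548 FPKM (mean ± SD, n = 3). In each of these 5 genes the groups did not overlap.

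The smallest ratios were those of *Lce1h*, *Lce1a2*, *Defb15*, *Gm39117* and *Gm40492*. *Lce1h* was at 0.626, 2.08 and 1.43 FPKM in group B and at 0.0486, 0.325 and 0.0439 FPKM in group C. *Lce1a2* was at 1.1, 1.44 and 1.68 FPKM in group B and at 0.288, 0.521 and 0.0866 FPKM in group C. *Defb15*, a defensin, was at 1.08, 1.25 and 1.02 FPKM in group B and at 0.295, 0.41 and 0 FPKM in group C, with 0 to 5 reads per group C library. All group C libraries were under all group B libraries in these genes, as they were for *Hspa1a*, *Hspa1l* and *Lce1f*. *Lce1f* was at 30, 42.6 and 33.4 FPKM in group B and at 7.47, 16.5 and 9.03 FPKM in group C, with no read in group D.

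**Figure D4:**
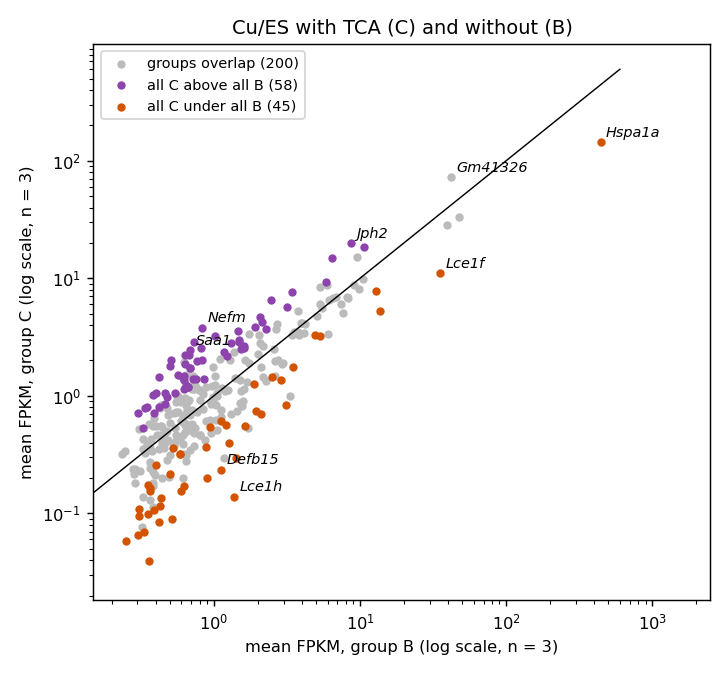
Mean FPKM of each of the 303 genes in group B and group C (both axes logarithmic, n = 3), with the line of equal values. In 58 genes all group C libraries are above all group B libraries (purple), in 45 they are under them (orange) and in 200 they overlap (grey).

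Some of the protein-coding genes belong to the same family. Of 16 late cornified envelope (*Lce*) genes at 0 in group A, 7 were among the 303. They were at group B means of 0.475 to 35.3 FPKM and were all higher in group C than in group D, with log2 fold changes of 1.06 to 6.71. The lowest, that of *Lce1h* with 1 to 8 reads per group C library, did not pass without C2 (log2 fold change 0.55) or without any 1 of the group D libraries. With a pseudocount of 1, 4 of the 7 passed. Over the whole family, 13 of 17 tested *Lce* genes were higher in group C than in group D, so the rise was not confined to the 7. *Lce1d* was at 11.1, 11.3 and 16.3 FPKM in group B, at 7.95, 7.94 and 7.53 FPKM in group C and at 0 in group D. *Lce1e* was at 1.86, 0.79 and 1.55 FPKM in group B and at 1.06, 1.73 and 1.44 FPKM in group C. The 4 glandular kallikreins *Klk1b24*, *Klk1b3*, *Klk1b4* and *Klk1b5*, proteases of salivary gland, came from 13 silent *Klk* genes. *Klk1b24* was at 4.95, 9.48 and 3.95 FPKM in group B and at 5.46, 8.37 and 5.77 FPKM in group C, and had no read in group D. Of the prolactin family, whose members are made in pituitary and placenta, 3 of 11 silent genes were chosen, at group B means of 0.386 to 1.94 FPKM. Both seminal vesicle secretory genes of the table, *Svs3b* and *Svs4*, were chosen, and *Svs4* was at 0.988, 6.03 and 2.88 FPKM in group B and at 0.239, 1.89 and 0.862 FPKM in group C. These families were picked after their values were seen. Their members are similar in sequence, so reads may have been split between copies.

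Among broader gene families, the interferons, interleukins and chemokines had 5 of 31 silent genes among the 303, the defensins 2 of 11 and the keratins with their associated proteins 4 of 36. Olfactory receptors had 2 of 84. Of all genes at 0 in group A, 5.03% were chosen. No homeobox or other patterning factor (of 40 silent genes), no potassium, sodium or calcium channel (of 36) and no cytochrome P450 (of 23) was chosen, counts that at these sizes are near that share. *Ifna16* was at 1.16, 2.36 and 1.71 FPKM in group B and at 1.45, 2.51 and 1.74 FPKM in group C, while *Ifna2*, also a type I interferon, was at 0.385, 0.654 and 0.851 FPKM in group B and at 2.04, 1.8 and 1.73 FPKM in group C. Both were at 0 in group D and were higher in group C by 4.29 on the log2 scale (Benjamini-Hochberg adjusted p = 2.98e-08 and 9.77e-09 by limma).

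On 11 lists of markers of other tissues, 7 of 140 silent genes were among the 303, a share of 5.0% against the 5.03% of all genes at 0 in group A. The germline list gave *Tuba3b*, *Hspa1l* and *Meioc* of 23 silent genes, the immune list *Cd79b* and *S100a8* of 20, the epidermis list *Krt24* of 19 and the neuron list *Nefm* of 13. The lists of muscle (11 silent genes), early embryo (12), pancreas and pituitary (11), gut, kidney and lung (10), eye (10), erythroid cells (8) and glia (3) gave none. *Cd79b*, a chain of the B cell receptor complex, was at 2.56, 2.39 and 2.4 FPKM in group B, at 6.33, 6 and 7.09 FPKM in group C and at 0.0817, 0.0206 and 0.0205 FPKM in group D. Groups C and D did not overlap, and the log2 fold change was 5.57 (SE 0.2, Benjamini-Hochberg adjusted p = 3.03e-10 by limma). *Tuba3b*, a tubulin of testis, was at 2.6, 4.21 and 3.57 FPKM in group B and at 1.32, 2.21 and 1.8 FPKM in group C. *Krt24* was at 0.598, 0.981 and 0.352 FPKM in group B and at 0.298, 0.496 and 0.151 FPKM in group C. Each of these genes was higher in group C than in group D past both thresholds, *Krt24* not with a pseudocount of 1 (log2 fold change 0.39).

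Some genes outside the lists, chosen after their values were seen, are textbook markers of tissue function. *Ucp1*, which uncouples respiration in brown fat, was at 2.53, 2.07 and 1.56 FPKM in group B, at 3.7, 5.1 and 5.27 FPKM in group C and at 0 in group D. *Angptl8*, a secreted regulator of lipoprotein lipase made by liver, was at 3.83, 4.55 and 3.64 FPKM in group B, at 3.69, 4.64 and 4.04 FPKM in group C and at 0 in each group D library. *Chrna3* and *Chrnb4*, subunits of the nicotinic receptor of autonomic ganglia, were at means of 0.948 ± 0.54 and 2.66 ± 1.09 FPKM in group B and of 0.617 ± 0.0999 and 3.69 ± 0.709 FPKM in group C (mean ± SD, n = 3).

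By RefSeq, 279 of the 303 genes could be given a class, of which 145 (52.0%) are lncRNA genes and 132 (47.3%) protein-coding genes. Among the classified genes at 0 in group A the shares were 54.4% and 44.7%, and among all classified genes they were 28.7% and 70.6%, so the 303 were nearer to the silent genes than to all genes. By name, 147 are predicted genes with Gm numbers and 24 are RIKEN cDNA genes. The 2 classes had like levels, with median group B means of 0.722 FPKM for lncRNA and 0.681 FPKM for protein-coding genes. Group C was higher than group D for 137 of 145 lncRNA genes and for 129 of 132 protein-coding genes, against 15.6% of all genes tested. This share was not worked out for each class. The genes were short, with a median length of 1250 bases as recovered from the values, against 1770 for the genes at 0 in group A and 2880 for the table. FPKM divides by length, so a given number of reads passes the threshold of 0.2 more easily in a short gene.

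Several of the 303 lie next to each other. With positions and strands from RefSeq for 257 of them, 13 runs of adjacent genes held 31, the longest being the 4 kallikreins. Adjacent here means next to each other on either strand among genes of the table, so a gene absent from the table may lie between. The number of runs to be expected was not worked out. *Hspa1a* and *Hspa1l* lie beside *Hspa1b*. *Gm32816*, *LOC115486548* and *Gm40457* lie between *Tial1*, which *Gm32816* overlaps, and *Bag3*, a co-chaperone of Hsp70 that was at 186 ± 3.34 FPKM in group C and 46.1 ± 2.35 FPKM in group D (mean ± SD, n = 3). *BC024386* and *Nlrp6* follow *Psmd13*, and *Chrna3* and *Chrnb4* are next to *Psma4*, both genes of proteasome subunits. *Psmd13* was at 329 ± 18.8 FPKM in group C and 56.4 ± 2.25 FPKM in group D, and *Nlrp6*, an innate immune sensor, was at 2.66, 2.75 and 3.61 FPKM in group C and at 0, 0 and 0.00553 FPKM in group D.

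The nearest gene upstream on the same strand, leaving out neighbours that belong to the 303, was itself higher in group C than in group D for 56 of 196 genes (28.6%). This share was 17.7% for the other genes at 0 in group A and 14.1% for all genes. For the nearest downstream gene the shares were 20.8%, 12.9% and 14.0%. The genes named next were chosen after their values were seen. Upstream of *Jph2* lies *Oser1*, a gene responsive to oxidative stress, at 157, 161 and 156 FPKM in group C and at 9.35, 11.6 and 8.39 FPKM in group D. Upstream of *C1qtnf2* lies *Slu7*, a splicing factor, at 113, 106 and 110 FPKM in group C and at 24.2, 24 and 24.5 FPKM in group D. The lncRNA gene *Gm35763*, which overlaps *Wdr95* and was at 4.59, 6.17 and 4.52 FPKM in group B, has *Hsph1* upstream, the gene of a heat shock protein, at 425 ± 9.72 FPKM in group C and 15.7 ± 0.472 FPKM in group D (mean ± SD, n = 3). *Uts2r*, the urotensin receptor, was at 3.48, 9.71 and 2.86 FPKM in group B and at 3.99, 9.44 and 4.56 FPKM in group C. Its upstream neighbour *Tex19.1*, a germline gene, was at 80.4, 190 and 84.3 FPKM in group B and at 68.9, 184 and 76 FPKM in group C. Both genes were highest in B2 and C2, as were many of the 303 (181 highest in B2 and 173 in C2). The part of neighbouring transcripts in these values was not tested, and the strand setting of the counting is not given in the sources used here. In RefSeq 49 of the 257 overlap another gene of the table, and of the 208 that overlap none 199 (95.7%) were higher in group C than in group D.

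**Figure D5:**
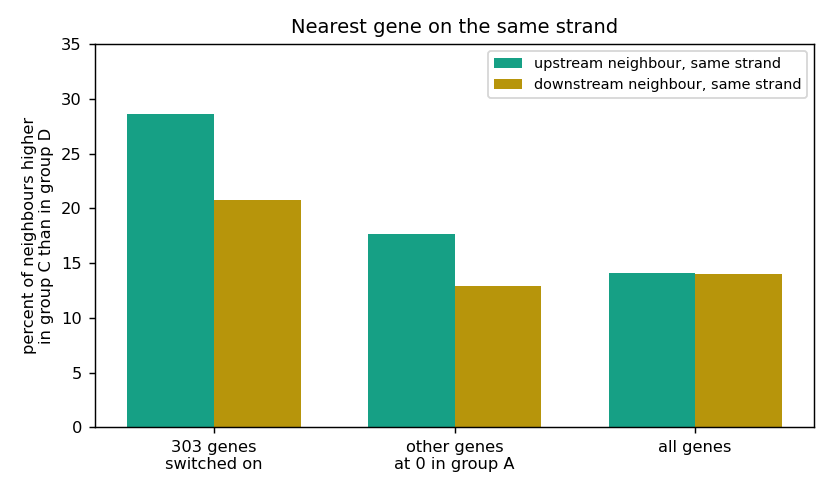
Percent of nearest same-strand neighbours that were higher in group C than in group D by limma, for the 303 genes (members left out as neighbours), for other genes at 0 in group A and for all genes. Upstream shares are 28.6%, 17.7% and 14.1% and downstream shares 20.8%, 12.9% and 14.0%.

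The bases before the transcription start were given for 224 of the 303 genes, and 250 of them were searched on both strands. A heat shock element of 3 units, alternating GAA and TTC with NN between, was found before 1 gene (0.446%), against 0.788% of genes at 0 in group A and 0.551% of all 18330 genes with a sequence. An element of 2 units, which also lies within the longer one, was found before 13.4% of the 303 that had a sequence, 17.0% of genes at 0 in group A and 13.6% of all genes. The metal response element (TGCACNC or TGCGCNC) was found before 17.9%, against 19.2% of genes at 0 in group A and 28.2% of all genes. The antioxidant response element (TGACNNNGC) was found before 10.7% and 12.8% of all genes, the AP-1 site (TGANTCA) before 11.2% and 7.26%, and the TATA box (TATAAA) before 16.5% and 11.5%. In genes at 0 in group A the AP-1 site and the TATA box were found before 8.76% and 16.9%. The median GC content of the searched bases was 47.8% for the 303, 49.2% for genes at 0 in group A and 55.6% for all genes, with medians of 3, 3 and 10 CpG pairs. Only exact matches were counted, so elements with a changed base in a unit are missing from these shares. A match is a description and not a binding site.

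The gene with the 3-unit element was *Gm31314*, an lncRNA gene at 0.309, 0.766 and 0.796 FPKM in group B, at 0.617, 1.22 and 0.911 FPKM in group C and at 0 in group D. Its element is shown with the bases around it, and the region before *Ucp1* is shown for its 2 metal response elements. Before *Jph2*, the protein-coding gene with the highest group C level after *Hspa1a*, neither element was found. Capitals mark the elements on either strand, *Jph2* is shown before the first of its listed starts, and the sequences are from RefSeq, GRCm38.p6.

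Gm31314 (chr5:119527999-119528061, minus strand): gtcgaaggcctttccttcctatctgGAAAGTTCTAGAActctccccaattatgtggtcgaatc
Ucp1 (chr8:83290098-83290347, plus strand): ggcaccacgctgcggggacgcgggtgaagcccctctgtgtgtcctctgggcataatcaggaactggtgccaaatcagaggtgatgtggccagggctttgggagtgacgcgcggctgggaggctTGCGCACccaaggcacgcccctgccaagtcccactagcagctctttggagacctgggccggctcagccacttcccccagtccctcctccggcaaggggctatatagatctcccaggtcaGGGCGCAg
Jph2 (chr2:163397994-163398243, minus strand): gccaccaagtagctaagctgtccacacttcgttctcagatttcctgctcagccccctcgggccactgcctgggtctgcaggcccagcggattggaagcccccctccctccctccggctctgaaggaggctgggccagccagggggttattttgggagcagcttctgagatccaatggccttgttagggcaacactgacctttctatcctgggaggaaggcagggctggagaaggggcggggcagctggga

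At the edge of the rule, the genes just inside had a lowest group B value of 0.201 FPKM and those just outside of 0.199 FPKM. *Krtap31-1*, *Gm53403* and *Gm36474* were inside. Their lowest group B libraries held 6, 13 and 3 reads. *Krtap31-1* was at 0.325, 0.386 and 0.201 FPKM in group B and at 0.0354, 0 and 0.159 FPKM in group C. *Aspn*, *Gm30062* and *Iqcf1* were outside. *Aspn* was at 0.241, 0.199 and 0.359 FPKM in group B and at 0.394, 0.389 and 0.566 FPKM in group C, and *Iqcf1* was at 0.199, 0.246 and 0.308 FPKM in group B and at 0, 0.0904 and 0 FPKM in group C. The threshold thus parts genes of like values, and thresholds of 0.1, 0.5 and 1 FPKM would have chosen 449, 147 and 81 genes.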

How the data were processed

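Libraries of polyadenylated RNA from AML12 cells in 4 groups of 3 were analysed, grouped by their treatment labels. The authors deposited FPKM values for 24824 genes by symbol. Per the labels, fastp, HISAT2 and HTSeq were used with GRCm39. Versions, annotation and strand setting are not given in the sources used here.

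The members and gene lists were chosen with earlier results of these data known. Whole reads, library totals and gene lengths were worked out from the step between FPKM values. All 22212 genes above 0 in at least 2 libraries gave whole reads (tolerance 0.02), 99.1% of them before reads were multiplied to reach a whole gene length. Expression was compared as log2(FPKM + 0.1) for genes above 0 in 3 or more of the 12 libraries. One limma 3.58.1 fit (R 4.3.3) of all 12 libraries used a mean-variance trend, with 8 residual degrees of freedom, two-sided p-values and Benjamini-Hochberg adjustment over 20801 genes. A gene was called where its adjusted p was under 0.05 and its log2 fold change above 1 in size. An exact test of 3 libraries against 3 cannot go below p = 0.1. On simulated data with 200 changed genes, the fit of group C against group D recovered 99 of 100 genes changed 4-fold and 100 of 100 changed 16-fold. False calls numbered 5 among 20801 genes. These counts were not split by read level or by spread between libraries. They therefore do not show how well the fit recovers genes with as few reads as those chosen by the rule.

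Classes, neighbours and 250 bases before each start came from RefSeq tables of GRCm38.p6, matched by symbol, since no table of GRCm39 was used. Genes were named if they were on a stress or cytokine list, among the 15 highest in group C or the 5 highest in group D, among the 5 largest or smallest ratios of group C to group B, next to the threshold, or the highest of a tissue list. Others are said to be chosen after their values were seen. Alternatives were other thresholds, pseudocounts, filters and scalings, limma-voom on recovered reads, a replicate block, the fit of groups C and D alone, no trend and leaving out each library. Counting genes that overlap no other gene was an alternative chosen after seeing the data. Tables and plots were made in Python 3.11.15 (numpy 2.4.6, pandas 2.3.3, matplotlib 3.10.9).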

Additional observations from a re-analysis of the deposited data

How the results depend on the processing

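The number of genes chosen depended on the threshold, with 147 at 0.5 FPKM and 81 at 1 FPKM in place of 303, and was 335 to 372 when any 1 library of group A or B was left out. Of the 303, 290 were higher in group C than in group D. This count was 131 with a pseudocount of 1 and 71 where a mean FPKM of 1 was required, since only 71 of the 303 were then tested, and all passed. Under the other settings it was 277 to 297, and 277 to 289 with any 1 library of group C or D left out. All genes higher in group C numbered 3250, and 1425 with a pseudocount of 1, 1316 (of 10615 tested) where a mean FPKM of 1 was required, and 5706 with median-ratio scaling. Leaving out 1 library gave 3140 to 3275. Genes lower in group C numbered 7521, and 4343 with median-ratio scaling. As given above, the pseudocount largely set the size of the fold changes of the 303 genes. The count at 0.2 FPKM or more in each group C library was 232, and 237 to 253 with 1 of these libraries left out. The count at 0 in each group D library was 215, and 233 to 237. The rule applied to groups D and C chose 335, and 384 to 416.

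Over all genes tested, deviations from the group means correlated weakly between libraries with the same replicate number. The mean r was 0.0465 (highest 0.268, A2 with D2), against -0.0231 for libraries with other numbers. For the same numbers of groups C and D, r was -0.0262 to 0.0114. Among the 303, library 2 was nonetheless the highest for many genes in both groups B and C. With the replicate number as a block, 290 of the 303 were higher in group C and 3264 of all genes. Among the 40 named genes no direction changed, and calls changed in 37 of 621 repeats under another setting, 9 of them with a pseudocount of 1, in *Il22*, *Krt24*, *Gm39117*, *Lce1a2*, *Gm53403*, *Gm40492*, *Defb15*, *Lce1h* and *Gm36474*. The other changes were in 6 genes near the thresholds, *Gm40923*, *Gm40492*, *Defb15*, *Lce1h*, *Krtap31-1* and *Gm36474*. Without C2, *Gm40492*, *Defb15*, *Lce1h* and *Gm36474* no longer passed, with log2 fold changes of 0.86, 0.99, 0.55 and 1.03. A count of 0 allows an expected number of up to 3 reads in a library. A level in group A below about 0.0618 FPKM in the median gene could therefore have been missed.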

Other observations

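Some genes near the 303 missed the rule by a few reads. Of the 335 genes at 0 in each group D library and at 0.2 FPKM or more in each group C library, 179 were not among the 303, and 94 of these had a read in group A. The most abundant was *Lce1g*, a cornified envelope gene at 0, 0.0279 and 0 FPKM in group A, at 46.4, 59.1 and 53.5 FPKM in group B, at 20.5, 40 and 26.3 FPKM in group C and at 0 in group D. *Klre1*, a receptor of natural killer cells, was at 0.0132, 0.0518 and 0 FPKM in group A, at 3.53, 4.36 and 4.68 FPKM in group B and at 5.36, 2.91 and 4.8 FPKM in group C. *Crct1*, also of the epidermis, was at means of 0.156 ± 0.109 FPKM in group A, 7.56 ± 1.26 in group B and 5.95 ± 1.1 in group C (mean ± SD, n = 3). These genes were chosen after their values were seen.

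The opposite pattern was rarer. At 0 in each group B library and at 0.2 FPKM or more in each group A library were 78 genes, and the same rule with groups C and D gave 56, of which 23 were shared (29.5% of the first and 41.1% of the second). Among the 23 were *Tmem221*, at 2.95, 3.4 and 2.8 FPKM in group A and 1.96, 2.86 and 2.44 FPKM in group D, *Rab38*, a small GTPase of melanosomes, at 1.52, 1.61 and 2.43 FPKM in group A and 1.21, 1.93 and 0.706 FPKM in group D, and *Hoxa2*, a patterning factor, at 0.279, 0.274 and 0.46 FPKM in group A and 0.297, 0.214 and 0.369 FPKM in group D. All 3 were listed at 0 in groups B and C. Libraries of groups B and C were shallower than those of groups A and D, and the part of depth in these zeros was not tested.

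*Cd79b* lies between *Scn4a*, a sodium channel of skeletal muscle, and *Gh*, growth hormone. *Scn4a* was at 1.72, 2.04 and 1.4 FPKM in group B, at 7.07, 4.57 and 6.63 FPKM in group C and at 0.0214, 0.114 and 0.105 FPKM in group D. *Gh* was at 0.123, 0.425 and 0.0947 FPKM in group B, at 0.234, 0.362 and 0.301 FPKM in group C and at 0, 0.0246 and 0 FPKM in group D, with 7 to 13 reads per group C library. Both were higher in group C than in group D (limma with Benjamini-Hochberg, log2 fold changes 5.12 and 1.88, adjusted p = 5.68e-09 and 0.00263). *Scn4a*, like *Cd79b*, was higher in every group C library than in any group B library.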
